A study of Homo sapiens with 4 samples.

Results

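The lysosome is the acidic organelle in which cells break down proteins, glycans, lipids and nucleic acids. Soluble hydrolases reach it carrying a mannose 6-phosphate tag that sorting receptors recognise in the Golgi, whereas the limiting membrane is built of heavily glycosylated proteins, channels and transporters. The transcription factors TFEB and TFE3 bind a short E-box sequence, called the CLEAR element, in the promoters of many lysosomal genes. In myeloid cells, lysosomes and the related granules serve the killing and digestion of engulfed material.

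The genes examined here were 42 named lysosomal genes, namely hydrolases and their activators, membrane proteins and transporters, sorting receptors, progranulin, and TFEB and TFE3, with cathepsins and proton pump subunits left out. They were chosen by name, with earlier results of these data known. Counts set beside shares of all genes are therefore descriptive, and no set test was run. A gene was kept where it had at least 1 TPM in at least 2 of the 4 samples. TPM is a level per transcript length, scaled to a common total in each sample, so that levels of different genes can be compared. Of the 42 genes, 39 were in the deposited table of 18567 genes, and all 39 passed the filter that 16817 genes of the table passed. SGSH, ACP5 and SORT1 were not analysed here.

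RNA was sequenced from cells labelled Kasumi-1, an established human acute myeloid leukemia (AML) cell line, with 2 NC samples and 2 sh-ANP32B samples. The NC samples are labelled as cells with no treatment and no shRNA, while the study's methods name a control hairpin, so whether they carried a hairpin was not settled. The sh-ANP32B samples are labelled as ANP32B knockdown, and the methods describe lentiviral hairpins and selection with puromycin. If the NC samples carried no hairpin, effects of infection and selection cannot be told apart from the knockdown in any difference given here. Which of the hairpins each sh-ANP32B sample carried is not stated, and nothing states whether replicates were separate cultures, so the p-values measure only the spread between these samples.

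ANP32B, the targeted gene, had 383.8 and 392 TPM in the NC samples and 51.8 and 41.2 TPM in the sh-ANP32B samples. Its log2 fold change was -3.04 (limma SE 0.150, adjusted p 0.00516). MYC, the gene the study followed downstream of ANP32B, had 130.8 and 143.8 TPM in NC against 56.7 and 63.2 TPM in sh-ANP32B (log2 fold change -1.18, limma adjusted p 0.0261). Among 11 markers of myeloblasts and of Kasumi-1, CD34 and MPO were not analysed here and the other 9 reached 1 TPM in every sample. RUNX1T1, the partner of RUNX1 in the fusion that defines the line, had 15.6 to 31.2 TPM. KIT, a receptor usually abundant on Kasumi-1 cells, had 1.55 to 3.41 TPM. HOXA9, a homeobox gene better known from other AML subtypes and looked up after its value was seen, had 150.2 to 194.5 TPM. Looked up in the same way, MEIS1, its cofactor, had 49.9 to 64.3 TPM, and POU4F1, a neural transcription factor known from AML with the RUNX1 fusion, had 16.1 to 22.9 TPM. The levels of KIT and HOXA9 are not those the line is known for, and the identity of the cells, which was not tested, is in doubt. Of 22 markers of lymphoid, erythroid, megakaryocytic, fibroblast and epithelial cells, 4 were tested and 0 were called in either direction. At an unadjusted limma p under 0.05, 0 of the 4 were higher and 2 lower, where 15.0% of all genes were higher and 8.72% lower.

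The promoters of these genes are shown first, because the E-box is a sequence through which TFEB and TFE3 act. Promoter windows of 300 bases, from 250 before to 50 after the gene start, were taken from RefSeq (GRCh38.p14) and matched by symbol for 32 of the 39 measured genes. Matches were sought to CACGTG, to TCACGTGA, and to TCACGTGA with a G before it and a C after it, the form nearest to the CLEAR element. Each reads the same on both strands, and the longer forms hold the shorter. LAMP1, the most abundant of the membrane proteins described here, had the most matches of CACGTG in a window, with 6. The 250 bases before its start (plus strand) hold 5 of them, shown in capitals.
LAMP1, chr13:113296989-113297238: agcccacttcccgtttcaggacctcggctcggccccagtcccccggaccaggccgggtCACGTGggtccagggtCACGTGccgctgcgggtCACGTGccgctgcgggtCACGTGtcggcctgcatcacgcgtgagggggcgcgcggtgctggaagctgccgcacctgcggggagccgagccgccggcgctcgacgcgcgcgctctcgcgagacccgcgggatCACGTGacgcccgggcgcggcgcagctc

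The 8-base form TCACGTGA was found in the windows of 6 genes, LAMP1, MCOLN1, CLN3, GAA, GALNS and IGF2R. Stretches of 30 bases around it are given for the other 5 genes, with CACGTG in capitals. They were picked by that match, so the 8 shared bases were fixed by the search. IGF2R had 3 such sites, of which the one nearest the start is given.
GAA first site, plus strand, chr17:80101493-80101522: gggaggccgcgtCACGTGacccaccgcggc
GAA second site, plus strand, chr17:80101538-80101567: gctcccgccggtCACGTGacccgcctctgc
MCOLN1 first site, plus strand, chr19:7522571-7522600: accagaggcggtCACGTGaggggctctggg
MCOLN1 second site, plus strand, chr19:7522598-7522627: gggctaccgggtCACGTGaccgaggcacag
CLN3, minus strand, chr16:28492058-28492087: cgcgggtgctgtCACGTGatccgacaaacg
GALNS, minus strand, chr16:88857104-88857133: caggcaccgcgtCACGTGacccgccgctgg
IGF2R site nearest the start, plus strand, chr6:159969042-159969071: ccgggcggctgtCACGTGacgcggttccgg

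CACGTG was found in the windows of 10 of the 32 genes, or 31.3%, and in 8.78% of the 27305 genes with a window. For TCACGTGA these shares were 18.8% and 1.18%, and for the 10-base form, found in GAA, MCOLN1, GALNS and IGF2R, they were 12.5% and 0.421%. In GAA the first bases of the matches lay at positions -76 and -31 from the RefSeq gene start, and in MCOLN1 at -41 and -14. In the GENCODE annotation, used for the gene spans given here, GAA begins earlier, at 80101533. The second GAA site, at 80101538 to 80101567, therefore lay upstream of the RefSeq start but inside an annotated GAA exon in GENCODE. A match is a string of letters and not a measured binding site, and which factor, if any, binds it was not tested. Of the 6 genes with TCACGTGA, GAA rose and the other 5 did not pass the test, with log2 fold changes from 0.20 for GALNS to 0.83 for CLN3. Of the 7 genes that rose, GAA was the only one whose window held CACGTG, which says of FUCA1, TPP1, GRN, IDS, TFEB and TFE3 only that these letters are not in that window.

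Across the group, the lysosomal genes were higher rather than lower in the sh-ANP32B samples. The values of the 39 genes summed to 5258 and 5258 TPM in NC replicates 1 and 2 and to 7104 and 7545 TPM in sh-ANP32B replicates 1 and 2. This sum made up 0.527% of the table in each NC sample, 0.712% in sh-ANP32B replicate 1 and 0.756% in replicate 2. Mitochondrial genes made up 12.9% and 13.1% of the table in NC replicates 1 and 2. In sh-ANP32B replicates 1 and 2 they made up 11.4% and 8.43%, which leaves a larger share to all other genes. In these bulk samples, more cells of a type that is rich in lysosomes and more lysosomal RNA per cell cannot be told apart. The levels ran from NEU1 at 2.19 TPM in NC replicate 1 to GRN at 1127 TPM in sh-ANP32B replicate 2.

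**Figure D1:**
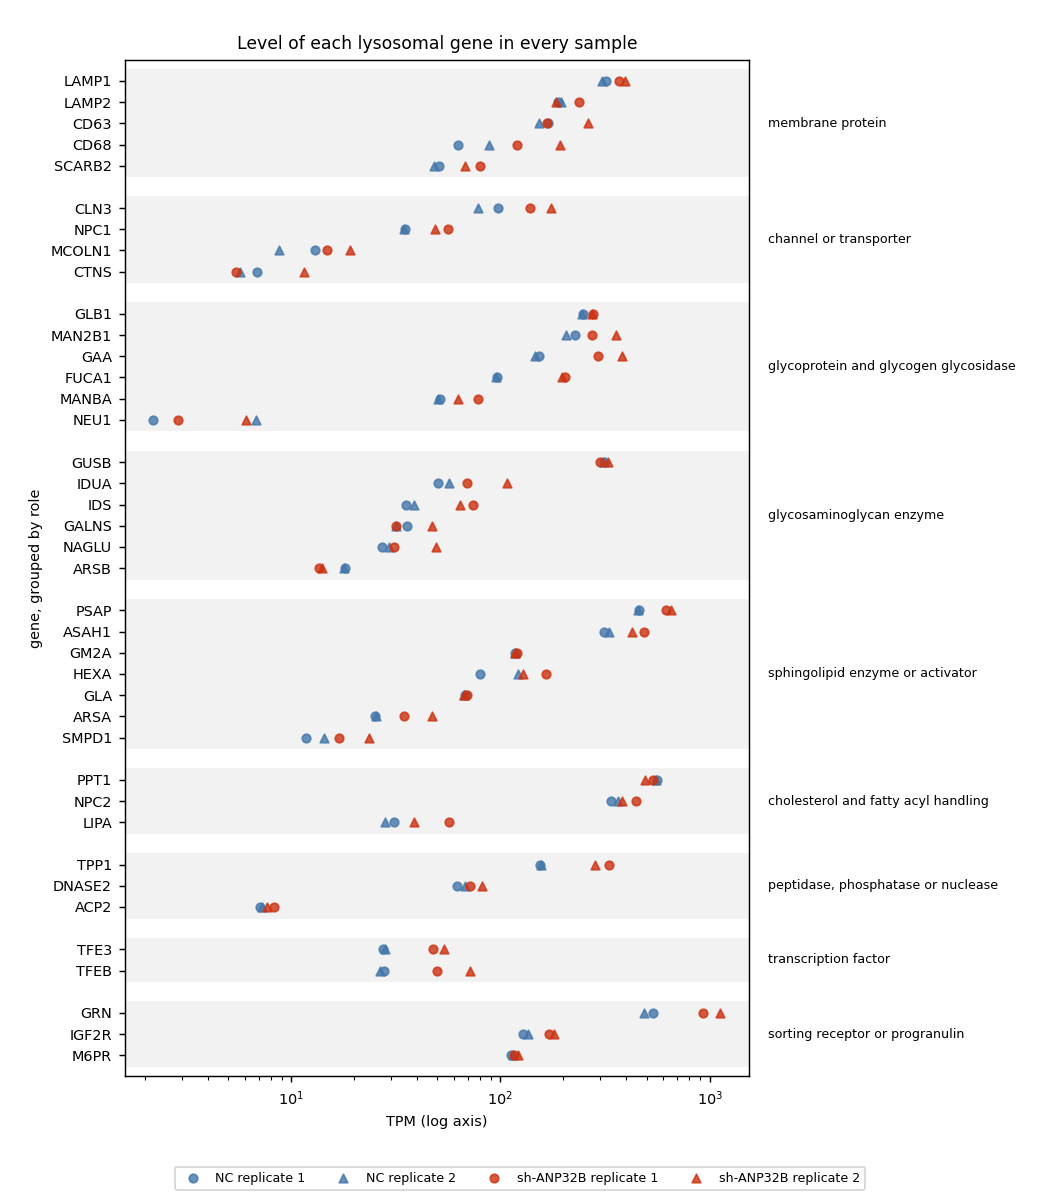
TPM (log axis) of the 39 lysosomal genes in each of the 4 samples, grouped by role; circles are replicate 1 and triangles replicate 2, NC in blue and sh-ANP32B in red. The red points lie to the right of the blue ones for most genes, as in GAA (152.1 and 147.1 against 294.2 and 380.6 TPM), and fall together with them for GM2A, GLA and M6PR.

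The groups were compared with limma on log2(TPM + 1), and a gene was called where its Benjamini-Hochberg adjusted p over all 16817 genes was under 0.05. Fold changes are on that scale, on which low genes appear to change less than they did. Of the 39 genes, 7 were called higher, where 2.14% of all genes were, and 0 were called lower, where 1.18% of all genes were. In a fit of protein-coding genes alone, 8 of the 39 and 601 of 11264 genes were called higher. Among genes with at least 1 TPM in all 4 samples, 8 of the 39 and 514 of 14476 were. At an unadjusted p under 0.05, 22 of the 39 were higher, against 15.0% of all genes, and 0 lower, against 8.72%. The study's thresholds, an unadjusted p under 0.05 and a log2 fold change over 0.5, were passed by 19 genes in the higher direction, against 12.1% of all genes, and by 0 in the lower, against 6.55%. The log2 fold change was above 0 in 36 of the 39, against 57.9% of all genes. Both sh-ANP32B values lay above both NC values in 30 of the 39 genes, against 33.2% of all genes, and below them in 2, ARSB and PPT1, against 21.4%. The median log2 fold change was 0.47, beside a median of 0.08 over all genes tested. Other annotated genes overlap most of these loci. Among them are TPP1, TFEB and CD68 (long non-coding RNAs), GLA (RPL36A), IDUA (SLC26A1), GALNS (TRAPPC2L), GM2A (CCDC69) and M6PR (PHC1). LIPA (IFIT genes), SCARB2 (FAM47E), NPC1 (RMC1) and MCOLN1 (PNPLA6) are others. The values of genes with such overlaps are uncertain where reads could be shared.

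The count of 7 depended on the fit. It was 17 after GC correction (7.53% of all genes called higher), 10 with the replicate block (5.84%), 14 with both (5.15%), and 5 after median-of-ratios scaling (1.40%) or upper-quartile scaling (1.43%), which left out TFEB and TFE3. After median-of-ratios scaling 12 genes passed the study's thresholds, against 9.05% of all genes. Calls over all genes were 360 higher and 199 lower, but 236 higher and 284 lower after median-of-ratios scaling, 241 and 227 after upper-quartile scaling, 308 and 227 with mitochondrial genes left out, and 1161 and 1373 after GC correction. Limma without the abundance trend called 0 of the 39 and 0 of all genes, with 17 of the 39 higher at an unadjusted p under 0.05, against 14.0% of all genes. Leaving out a library gave 4 calls without NC replicate 1 (FUCA1, GAA, GRN and TFEB), 2 without NC replicate 2 (CD68 and GAA), 24 without sh-ANP32B replicate 1 and 20 without sh-ANP32B replicate 2. The shares of all genes called higher were then 1.45%, 1.27%, 14.6% and 12.3%, and in each of these fits the lone sample of a group is assumed to vary like the other group.

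**Figure D2:**
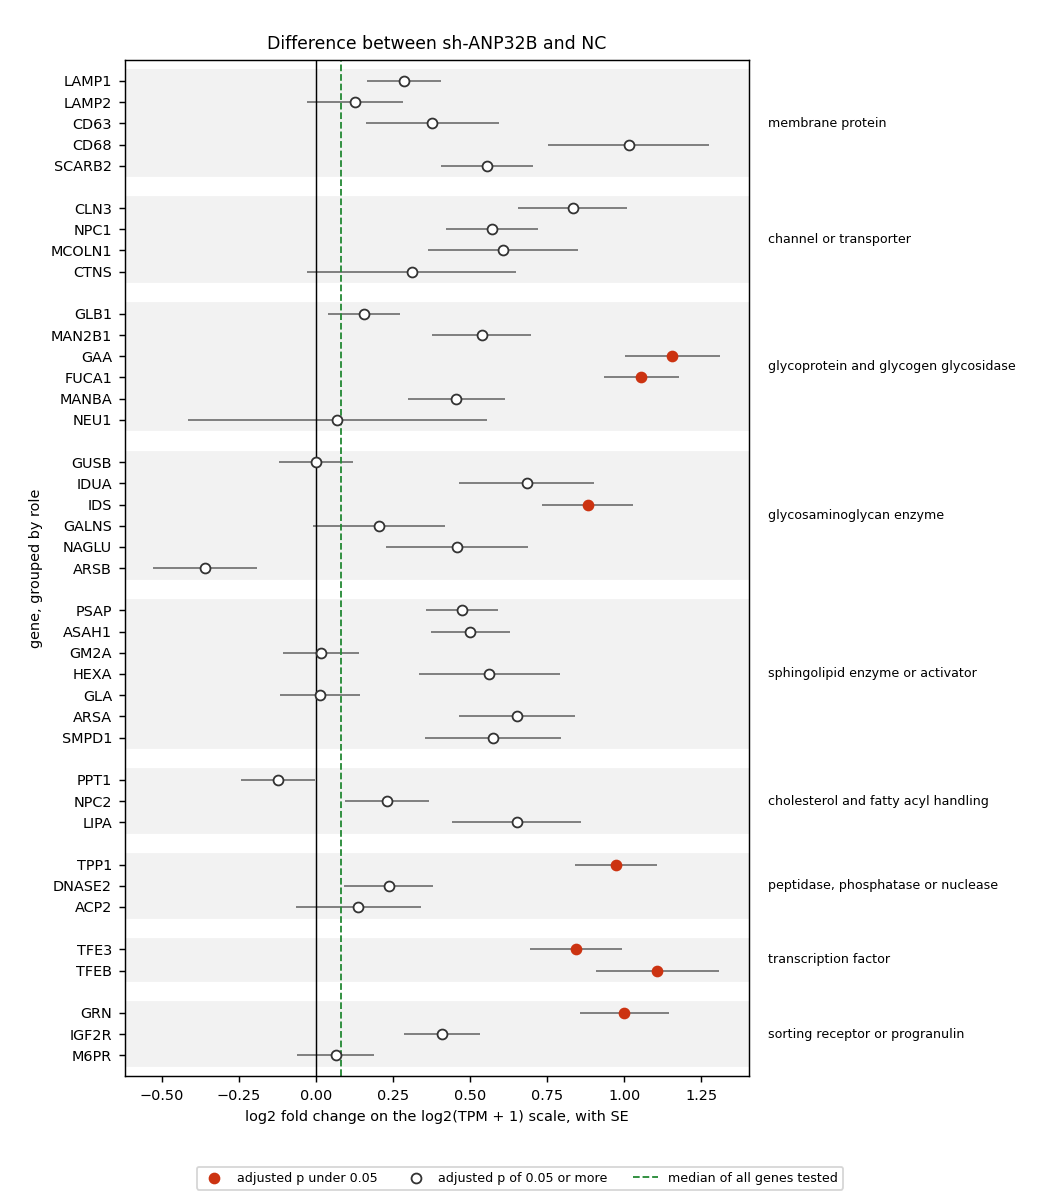
Log2 fold change of sh-ANP32B against NC on the log2(TPM + 1) scale for the 39 lysosomal genes, grouped by role, with the limma SE as a bar (n = 2 each); filled points have an adjusted p under 0.05. The 7 filled points lie between 0.84 and 1.16, ARSB at -0.36 is the lowest, and the dashed line marks the median of all genes at 0.08.

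Both transcription factors of the group rose. TFEB, the main activator of lysosomal gene transcription, had 27.8 and 26.5 TPM in NC against 49.8 and 71.6 TPM in sh-ANP32B. Both sh-ANP32B values were above both NC values, and the means were 60.7 ± 15.4 TPM in sh-ANP32B and 27.2 ± 0.915 TPM in NC (SD, n = 2). The log2 fold change of TFEB was 1.11 (limma SE 0.199, adjusted p 0.0440). TFE3, its close relative with overlapping targets, had 27.5 and 28.0 TPM in NC against 47.6 and 53.8 TPM in sh-ANP32B. The groups did not overlap, and the log2 fold change was 0.84 (limma SE 0.149, adjusted p 0.0440). After median-of-ratios scaling the limma adjusted p was 0.0520 for TFEB and 0.0511 for TFE3, with log2 fold changes of 1.02 and 0.76, and with upper-quartile scaling it was 0.0511 and 0.0507. In hg38 TFEB spans chromosome 6, 41683978 to 41736259, and TFE3 spans chromosome X, 49028726 to 49043410, both on the minus strand.

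The enzymes that cut sugars from glycogen and glycoproteins held the largest difference of the group. GAA, the acid alpha-glucosidase that degrades glycogen, had 152.1 and 147.1 TPM in NC against 294.2 and 380.6 TPM in sh-ANP32B. Its lowest sh-ANP32B value was well above its highest NC value, and the mean was 2.25-fold that of NC. The log2 fold change of GAA was 1.16 (limma SE 0.156, adjusted p 0.0323), and it was 0.89 after GC correction. FUCA1, the fucosidase that trims fucose from glycoproteins, had 96.4 and 94.8 TPM in NC against 203.1 and 196.5 TPM in sh-ANP32B. Its replicates lay close together in both groups, and its log2 fold change of 1.06 (SE 0.122) had the lowest adjusted p of the 39 genes (limma adjusted p 0.0261). GAA spans chromosome 17, 80101533 to 80119881 (plus strand), and FUCA1 chromosome 1, 23845077 to 23868290 (minus strand).

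The other 4 glycosidases of this kind did not pass the test. MAN2B1, the alpha-mannosidase, had 226.4 and 206.3 TPM in NC against 275.2 and 358.4 TPM in sh-ANP32B (log2 fold change 0.54, limma adjusted p 0.112). MANBA, the beta-mannosidase, had 51.5 and 50.2 against 78.1 and 62.97 TPM (log2 fold change 0.46, limma adjusted p 0.147). GLB1, the beta-galactosidase known as the marker of senescent cells, had 248 and 246 against 277 and 273.3 TPM, a small step above a narrow NC range (log2 fold change 0.16). NEU1, the sialidase, had the lowest level of the 39 genes, and its 2.19 and 6.79 TPM in NC overlapped the 2.88 and 6.05 TPM in sh-ANP32B.

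Among the 6 measured enzymes that degrade glycosaminoglycans, IDS rose and the others did not pass the test. IDS, the iduronate sulfatase lacking in Hunter syndrome, had 35.3 and 38.5 TPM in NC against 73.6 and 64.2 TPM in sh-ANP32B, without overlap. Its log2 fold change was 0.88 (limma SE 0.149, adjusted p 0.0426). IDS (chromosome X, 149476988 to 149521096, minus strand) has a near-identical pseudogene copy and overlaps a locus on its own strand, ENSG00000241489, which had 1.97 and 2.72 TPM in NC against 5.23 and 7.10 TPM in sh-ANP32B, so its value is uncertain where reads can be shared. IDUA, the iduronidase that acts after IDS, had 50.4 and 56.6 TPM in NC against 69.5 and 107.3 TPM in sh-ANP32B (log2 fold change 0.68, limma adjusted p 0.127). NAGLU, which removes glucosamine residues from heparan sulfate, had 27.3 and 29.3 against 31.1 and 49.3 TPM, a difference made mostly by sh-ANP32B replicate 2 (log2 fold change 0.46).

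GUSB, the beta-glucuronidase often used as a reference gene, had the highest level of this class and the smallest difference of the group. Its values were 313.8 and 313.7 TPM in NC against 300.4 and 327.7 TPM in sh-ANP32B, so that the NC values lay between the sh-ANP32B ones. GUSB has several pseudogenes with which it can share reads. GALNS, the sulfatase lacking in Morquio syndrome, had 35.7 and 31.5 against 31.8 and 47.4 TPM, with overlap. ARSB, the sulfatase that removes sulfate from dermatan and chondroitin sulfate, was the lowest of the 39 differences. It had 18.1 and 17.8 TPM in NC against 13.5 and 14.03 TPM in sh-ANP32B, a log2 fold change of -0.36 (limma SE 0.169, adjusted p 0.255).

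The 7 genes of sphingolipid breakdown gave 0 calls, with 5 higher and 0 lower at an unadjusted limma p under 0.05, against 15.0% and 8.72% of all genes. PSAP, the precursor of the saposins that present lipids to the hydrolases, had 459.7 and 456.1 TPM in NC against 616.2 and 656.7 TPM in sh-ANP32B (log2 fold change 0.47, limma adjusted p 0.0771). ASAH1, the acid ceramidase, had 313.5 and 329.1 against 484.7 and 427 TPM (log2 fold change 0.50, limma adjusted p 0.0803). Both genes had sh-ANP32B values above both NC values, as did 33.2% of all genes. Both passed the test after GC correction, at log2 fold changes of 0.35 for PSAP and 0.46 for ASAH1. That correction called 7.53% of all genes higher. Of 11 alternatives that kept all samples, PSAP passed in 1 and ASAH1 in 2. ARSA, which removes sulfate from sulfatide, had 25.2 and 25.4 TPM in NC against 34.5 and 47.2 TPM in sh-ANP32B (log2 fold change 0.65). SMPD1, the acid sphingomyelinase, had 11.8 and 14.4 against 16.9 and 23.5 TPM (log2 fold change 0.57). HEXA, a subunit of beta-hexosaminidase, varied within NC, with 79.7 and 121.4 TPM, and had 165.7 and 128.2 TPM in sh-ANP32B. GLA and GM2A, the alpha-galactosidase lacking in Fabry disease and the activator of GM2 ganglioside breakdown, stood apart from these. GLA had 67.9 and 66.9 TPM in NC against 69.4 and 66.7 TPM in sh-ANP32B, and GM2A had 117.6 and 117.1 against 119.6 and 117.8 TPM. Their log2 fold changes were 0.01 and 0.02, both below the median of all genes.

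Of the enzymes and carriers of lipids, PPT1 and NPC2 were abundant and LIPA was not. PPT1, the thioesterase that strips palmitate from proteins, had the highest NC level of the 39 genes, with 558.3 and 556.2 TPM, and 534.4 and 490.7 TPM in sh-ANP32B. Its log2 fold change was -0.12 (limma SE 0.120, adjusted p 0.592). NPC2, the soluble cholesterol carrier, had 337 and 366.2 TPM in NC against 446.9 and 380.2 TPM in sh-ANP32B (log2 fold change 0.23). LIPA, the acid lipase that frees cholesterol and fatty acids, had 30.99 and 28.2 against 56.98 and 38.7 TPM (log2 fold change 0.65, limma adjusted p 0.128). The spread of LIPA between the sh-ANP32B replicates was wide against its difference from NC.

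TPP1 rose by close to its own NC level. This peptidase, which removes tripeptides from the ends of proteins and is lacking in a childhood neuronal storage disease, had 154.4 and 156.8 TPM in NC against 332.1 and 282.9 TPM in sh-ANP32B. The groups did not overlap, and the means were 307.5 ± 34.7 TPM in sh-ANP32B and 155.6 ± 1.72 TPM in NC (SD, n = 2). The log2 fold change of TPP1 was 0.97 (limma SE 0.133, adjusted p 0.0323). TPP1 spans chromosome 11, 6612768 to 6619448 (minus strand). DNASE2, the acid nuclease that digests engulfed DNA, had 62.3 and 67.6 against 71.5 and 82.0 TPM (log2 fold change 0.24). ACP2, the acid phosphatase, had between 7.06 and 8.30 TPM in the 4 samples (log2 fold change 0.14). Neither DNASE2 nor ACP2 passed the test.

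Of the 5 membrane proteins 0 were called, with 2 higher and 0 lower at an unadjusted limma p under 0.05, against 15.0% and 8.72% of all genes. LAMP1, a main component of the membrane coat, had 320.3 and 305.7 TPM in NC against 368.2 and 395.9 TPM in sh-ANP32B (log2 fold change 0.29, limma SE 0.120, adjusted p 0.212). LAMP2, its partner and the receptor of chaperone-mediated autophagy, had 188.5 and 193.98 against 237.6 and 183.6 TPM, with overlap. CD68, a lysosomal glycoprotein used as a macrophage marker, had 62.7 and 88.7 TPM in NC against 119.7 and 192.1 TPM in sh-ANP32B. The mean of CD68 was 2.06-fold that of NC, its groups did not overlap, and its replicates were far apart in both groups (log2 fold change 1.01, limma SE 0.261, adjusted p 0.0819). Of 11 alternatives that kept all samples, CD68 passed the test in 2, both with the replicate block, which pairs samples by number only. Its limma adjusted p was 0.0140 with the block and GC correction, and 0.0508 with GC correction alone. CD63, a tetraspanin of late endosomes and azurophil granules, had 168.6 and 153.2 against 167.2 and 261.4 TPM, so that sh-ANP32B replicate 1 lay within the NC values. SCARB2, the receptor that carries glucocerebrosidase to the lysosome, had 51.1 and 48.3 against 80.04 and 67.5 TPM (log2 fold change 0.56, limma adjusted p 0.0904).

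The channel and transporters gave 0 calls among 4 genes, with 3 higher and 0 lower at an unadjusted limma p under 0.05, against 15.0% and 8.72% of all genes. CLN3, a membrane protein whose loss causes juvenile Batten disease, was nearest to the threshold, with 96.95 and 78.2 TPM in NC against 138.3 and 175.5 TPM in sh-ANP32B (log2 fold change 0.83, limma SE 0.175, adjusted p 0.0565). Of 11 alternatives that kept all samples, CLN3 passed the test in 5 and did not in 6. Its limma adjusted p was 0.0209 after GC correction, 0.0430 among genes with at least 1 TPM in all 4 samples and 0.0351 among protein-coding genes. It was 0.0768 after median-of-ratios scaling, 0.0700 after upper-quartile scaling and 0.144 without the abundance trend. CLN3 overlaps APOBR on the opposite strand, which had 37.6 and 33.2 TPM in NC against 57.6 and 105.3 TPM in sh-ANP32B. Strand in the counting is not stated, so reads of the pair may not be told apart. NPC1, the membrane cholesterol transporter that works with NPC2, had 34.97 and 34.6 against 55.98 and 48.6 TPM (log2 fold change 0.57, limma adjusted p 0.0845). MCOLN1, the calcium channel whose opening activates TFEB through calcineurin, had 12.98 and 8.75 against 14.8 and 19.0 TPM (log2 fold change 0.61). CTNS, the cystine exporter, had 6.84 and 5.66 TPM in NC against 5.44 and 11.5 TPM in sh-ANP32B, with overlap.

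Of the receptors that deliver hydrolases, IGF2R and M6PR were measured. IGF2R, the large mannose 6-phosphate receptor, had 128.5 and 135.5 TPM in NC against 171 and 179.97 TPM in sh-ANP32B (log2 fold change 0.41, limma SE 0.123, adjusted p 0.115). M6PR, the smaller receptor, had 111.96 and 114.8 against 115.7 and 121.4 TPM (log2 fold change 0.06). GRN, progranulin, a secreted and lysosomal protein cut into granulins, was the most abundant of the genes that rose. It had 536.1 and 485.2 TPM in NC against 925.3 and 1127 TPM in sh-ANP32B, and its mean was 2.01-fold that of NC. The log2 fold change of GRN was 1.00 (limma SE 0.144, adjusted p 0.0348). GRN spans chromosome 17, 44345246 to 44353106 (plus strand).

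Summed within roles, the pair of transcription factors reached 2.03 times its NC level, the highest ratio of the 9 roles. The role of receptors and progranulin reached 1.75 times, in which GRN held most of the sum, and that of peptidases, phosphatases and nucleases 1.72 times. Channels and transporters reached 1.68 times and glycosidases 1.58 times. The lowest ratios were 1.17 for glycosaminoglycan enzymes, where GUSB held most of the sum, and 1.04 for cholesterol and fatty acyl handling, where PPT1 and NPC2 did. In that last role sh-ANP32B replicate 2, at 909.6 TPM, lay below both NC samples, at 926.3 and 950.6 TPM.

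**Figure D3:**
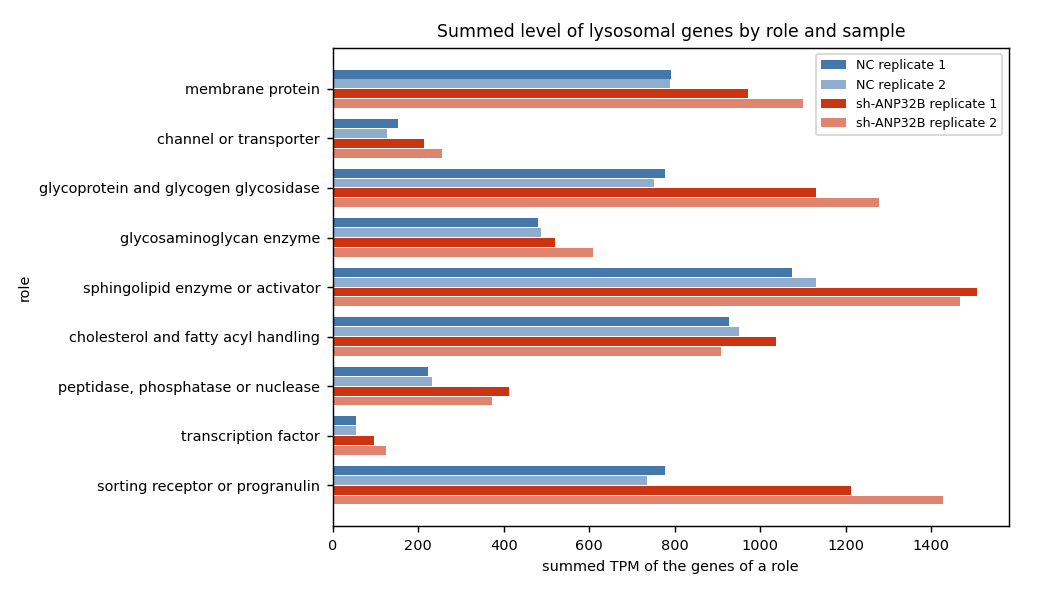
Summed TPM of the measured genes of each of 9 roles, a bar per sample (NC in blue, sh-ANP32B in red, replicate 2 in the paler shade, axis from 0). In 8 roles both red bars are longer than both blue ones, as in glycosidases (776.7 and 751.1 against 1130 and 1278 TPM), and in cholesterol and fatty acyl handling they are not.

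The sh-ANP32B replicates differed from each other in a way that followed base composition. Across the 39 genes, the log2 difference between sh-ANP32B replicates 2 and 1 had a Spearman rho of 0.813 with the GC content of the longest transcript, which ranged from 36.0% to 67.7%. The points share the same libraries, and over the 15427 tested genes with a GC value rho was 0.577. Of the 19 genes above the median GC content of 51.6%, 18 were higher in sh-ANP32B replicate 2 than in replicate 1, against 5 of the 20 others. The median log2 fold change between groups was 0.57 in the former and 0.35 in the latter. After GC correction it was 0.35 over the 39 genes, beside -0.01 over all genes, and all 7 called genes were still called. The GC-rich genes GAA, GRN and TFEB then had log2 fold changes of 0.89, 0.77 and 0.89.

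**Figure D4:**
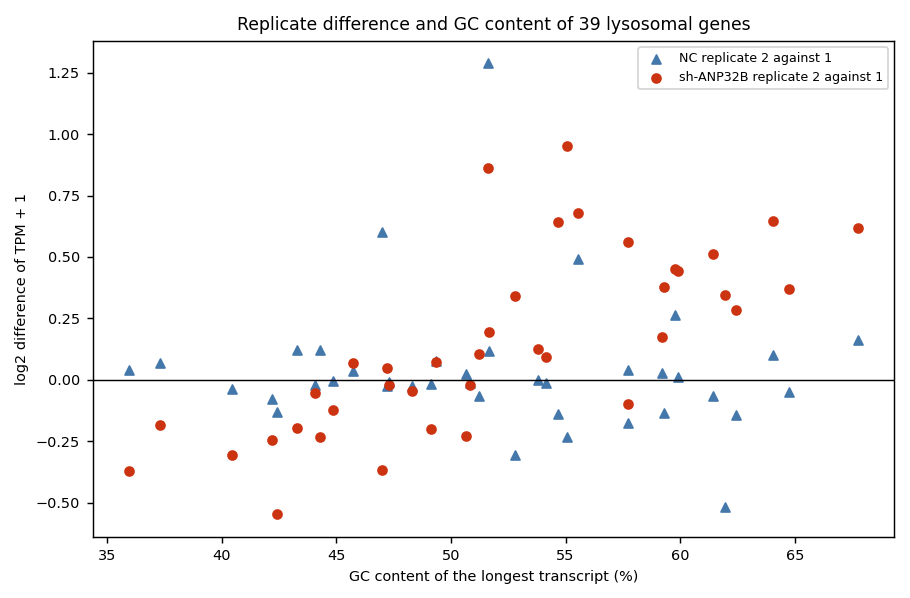
Log2 difference of TPM + 1 between replicate 2 and replicate 1 (vertical) against GC content of the longest transcript in percent (horizontal) for the 39 lysosomal genes, with sh-ANP32B in red circles and NC in blue triangles. The red points climb from below 0 at low GC content to above 0 at high GC content (Spearman rho 0.813).

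Other lysosomal genes, from lists that do not overlap the 39 and likewise chosen with earlier results known, were compared in the same fit. In it 2.14% of all genes were called higher and 1.18% lower. At an unadjusted limma p under 0.05 these shares were 15.0% and 8.72%. Of 21 other hydrolases and cofactors, 2 were called higher and 0 lower, with a median log2 fold change of 0.33. At an unadjusted limma p under 0.05, 7 of the 21 were higher and 1 lower, HYAL2 (log2 fold change -0.73). The largest rise among them was in PLA2G15, a lysosomal phospholipase (log2 fold change 0.91). Of 19 other membrane proteins and transporters, 2 were called higher and 0 lower, namely LAPTM4A and the channel TPCN1 (0.79 and 0.81), with a median of 0.29. At an unadjusted limma p under 0.05, 7 of the 19 were higher and 1 lower, OSTM1 (-0.67). The largest difference of that list was in the sialic acid exporter SLC17A5 (0.81, limma adjusted p 0.0604). Of 9 cathepsins 3 were called higher and 0 lower, CTSA, CTSB and CTSD, with a median of 0.71. At an unadjusted limma p under 0.05, 6 of the 9 were higher and 0 lower. CTSD, the main aspartic protease of the lysosome, had 765.3 and 683.5 TPM in NC against 1196 and 1636 TPM in sh-ANP32B. The largest log2 fold change of the list was that of CTSK, 1.12 (limma adjusted p 0.0621).

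Genes that acidify the lysosome, tag its enzymes or sense its state gave 0 calls in 3 lists. Over all genes 2.14% were called higher and 1.18% lower. At an unadjusted limma p under 0.05, 15.0% of all genes were higher and 8.72% lower. The share higher was a little below 15.0% among the proton pump and Golgi sorting genes and above it among the nutrient-sensing genes. These lists are short, and the differences between the shares were not tested. Of the 15 subunits of the proton pump, 14 had a log2 fold change above 0, against 57.9% of all genes. Both sh-ANP32B values lay above both NC values in 11, against 33.2% of all genes, and below them in 0, against 21.4%. Their median log2 fold change was 0.27, with 2 higher and 0 lower at an unadjusted limma p under 0.05. The largest difference was in the accessory subunit ATP6AP1 (0.79). The 17 genes of mannose 6-phosphate tagging and Golgi sorting had a median of 0.13, near that of all genes, with 2 higher and 0 lower at that level, and GGA1, a Golgi adaptor, had the largest difference (0.44). The 22 partners of TFEB and genes of nutrient sensing on the lysosome had a median of 0.28, with 5 higher and 1 lower at that level. The largest difference there, 0.56, was in FNIP1, which lay between 0.213 and 1.39 TPM and had a limma adjusted p of 0.428. FNIP1 was below 1 TPM in both NC samples, so it passed the filter only through its sh-ANP32B values. The gene lower at an unadjusted limma p under 0.05 was MLST8 (-0.54).

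**Figure D5:**
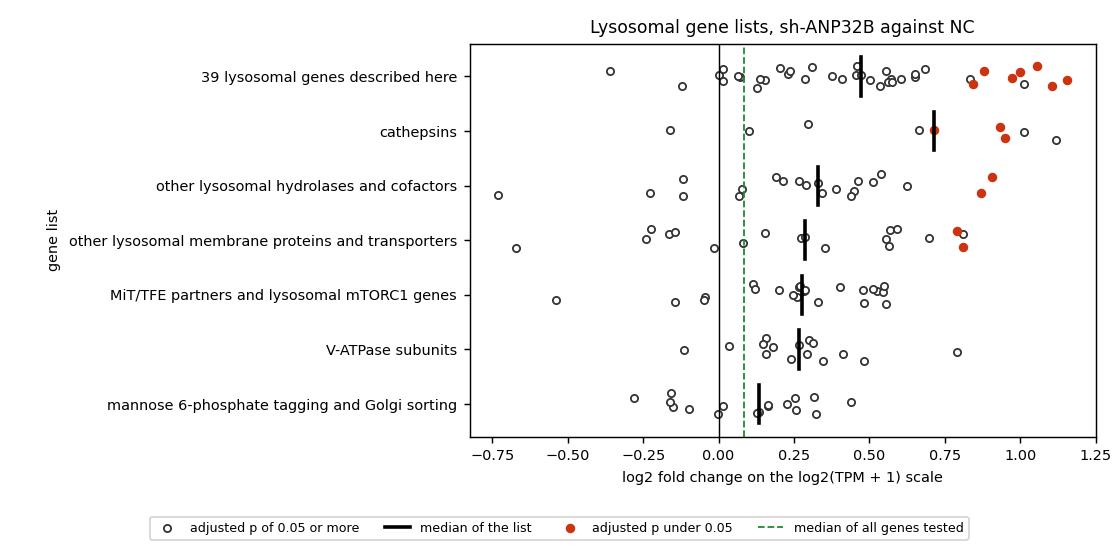
Log2 fold change of sh-ANP32B against NC on the log2(TPM + 1) scale for the 39 lysosomal genes and 6 other lysosomal gene lists, a point per gene (filled: adjusted p under 0.05), with the list median as a black bar and the median of all genes (0.08) as a dashed line. List medians run from 0.13 for Golgi sorting to 0.71 for cathepsins, with 0.47 for the 39 genes.

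Of 12 markers of monocytes and macrophages 7 were tested, and 2 were called higher and 0 lower, against 2.14% and 1.18% of all genes. At an unadjusted limma p under 0.05, 4 of the 7 were higher and 0 lower, against 15.0% and 8.72% of all genes. Their summed level was 44.2 and 43.8 TPM in NC against 95.9 and 107.6 TPM in sh-ANP32B. ITGAX made up the largest part of the rise in this sum. ITGAX, an integrin of macrophages and dendritic cells, had 10.4 and 10.6 TPM in NC against 41.7 and 41.6 TPM in sh-ANP32B (log2 fold change 1.89, limma adjusted p 0.0154). C1QA, a complement subunit made by macrophages, rose from 1.01 and 0.918 TPM to 4.14 and 7.90 TPM (log2 fold change 1.78, limma adjusted p 0.0479). The other 5, CSF1R, ITGAM, FCGR1A, MARCO and MERTK, did not pass the test, with log2 fold changes from 0.19 for CSF1R, whose groups overlapped, to 0.97 for ITGAM (limma adjusted p 0.0551). CD14, CD163, MRC1, C1QB and VSIG4 were not analysed here. The part of these markers in the lysosomal differences was not tested.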

How the data were processed

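The authors aligned the reads to hg38 with HISAT2 2.0.5 (per the submitters' processing notes) and deposited TPM values of 18567 Ensembl genes in 2 NC and 2 sh-ANP32B samples. The unit was identified from the values, which are decimals summing to between 997812 and 998314 per sample. The program that made the TPM values, its annotation and any filter are not given in the sources used here. TPM keeps no depth, so intervals and floors that need a depth are not given.

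Symbols, positions and GC content came from GENCODE 44 (hg38), which held 16986 of the IDs. This annotation may not be that of the authors. A gene entered the fit with 1 TPM or more in 2 or more samples. On the log2(TPM + 1) scale the groups were compared with limma 3.58.1 in R 4.3.3 (abundance trend, two-sided, Benjamini-Hochberg over 16817 genes). The count-based test of the study was left out. An exact permutation test of 2 against 2 samples cannot go below p 0.333, so none was run. The limma step was tested on simulated data. The labels give no batch.

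The genes, lists and roles were chosen with earlier results of these data known. Values in every sample follow a rule (called genes, the 5 largest and 5 smallest differences, TFEB and TFE3, the most abundant gene of each role) and are given for the other measured genes as well. In the other lists, called genes and the largest difference are named, apart from a called gene that is not reported here, and KIT was picked from its list after its values were seen. Alternatives were 3 scalings, GC correction by loess, a replicate block, 2 filters, a pseudocount of 0.1, no abundance trend, protein-coding genes, and leaving out each library.

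Same-numbered samples share only a number in their titles.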

Additional observations from a re-analysis of the deposited data

How the results depend on the processing

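The median log2 fold change of the 39 lysosomal genes, 0.47, was 0.38 after median-of-ratios scaling. It was 0.42 with mitochondrial genes left out, and 0.35 after GC correction, with or without the replicate block. Over the fits that leave out a library it ranged from 0.37 to 0.48. The count called higher, 7, rose to 17 with GC correction, to 10 under a replicate block and to 14 with both, fell to 0 without the abundance trend, and ranged from 2 to 24 over leaving out a library. The count past the study's thresholds, 19, was 12 after median-of-ratios scaling and 11 to 18 over leaving out a library. The count lower was 0 under every alternative, by both call rules. Over all genes, the 559 calls became 2534 with GC correction, 1473 under a replicate block, 1806 with both, 966 among protein-coding genes, 0 without the abundance trend (3701 at an unadjusted limma p under 0.05) and 273 to 4079 over leaving out a library. ANP32B stayed at -3.04 without the trend, with a limma adjusted p of 0.0929. The cause of these shifts was not tested.

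Pairing by number was checked from the deviations within groups, whose correlation across genes was -0.0925 (Pearson) or -0.168 (Spearman), so the replicate block pairs samples by number only.

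Some of the genes that did not pass the test changed sign. GLA was -0.074, -0.049, -0.035 and -0.012 with median-of-ratios scaling, upper-quartile scaling, mitochondrial genes left out and GC correction, and GM2A was -0.072, -0.047, -0.033 and -0.024. M6PR was -0.025 after median-of-ratios scaling. NEU1 was -0.022 and ACP2 -0.050 after GC correction. With the block added to that correction, GLA, GM2A, NEU1 and ACP2 had the same values as with GC correction. Over leaving out a library, NEU1 ranged from -0.57 to 0.71, CTNS from -0.17 to 0.79, LAMP2 from -0.058 to 0.31, GALNS from -0.076 to 0.48, GUSB from -0.062 to 0.062 and GLA from -0.014 to 0.041.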
